A study of Homo sapiens with 4 samples.

Results

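The HOX genes encode homeodomain transcription factors that stand in line in clusters and set position along the head-to-tail axis of the embryo. Within a cluster, genes at one end (low numbers) are used early and towards the head and genes at the other end late and towards the tail. Genes with the same number in different clusters are paralogs, close copies with related DNA binding. Adult colon epithelium and colorectal tumours keep part of this pattern, and whole blocks of a cluster are commonly switched on or silenced together by Trithorax and Polycomb proteins. The members were all genes whose symbol is HOX, followed by a cluster letter from A to D and a number, and they came to 39 of the 26255 gene symbols measured. They comprised 11 genes of cluster A on chromosome 7, 10 of cluster B on chromosome 17, 9 of cluster C on chromosome 12 and 9 of cluster D on chromosome 2.

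RNA was measured in HCT116, an established human colorectal cancer line, in 2 libraries of C14orf159 knockout cells (KO 1 and KO 2) and 2 libraries of control cells that received an empty vector (EV control 1 and 2). The file headers name the knockout columns sgDGLUCY, after the current symbol of C14orf159, and the control columns AAVS1, the name of a safe-harbour site in the genome. The study asked why this gene lowers migration, invasion and spheroid growth of colorectal cancer cells. No drug, dose or time is given for either group, and nothing states whether the 2 libraries of a group came from separate cultures or clones, so each p-value is set against a spread between libraries that may be purely technical.

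C14orf159, whose protein lies in the mitochondrial matrix, had 2.52 FPKM in KO 1 and 10.8 FPKM in KO 2, against 16.2 and 16.4 FPKM in EV controls 1 and 2 (FPKM, fragments per kilobase of transcript per M fragments, a level adjusted for transcript length). Each KO library was below both controls, at 15.5% of the EV mean in KO 1 and 66.2% in KO 2, so the targeted transcript was far lower in KO 1 than in KO 2. The epithelial markers reached 1 FPKM in 5 of 6 genes (summed level 3342 to 3704 FPKM in KO and 3362 to 3535 FPKM in EV control), VIL1 being the exception. No fibroblast marker (0 of 4) and no endothelial marker (0 of 3) reached that level, nor did any immune marker but LYZ, while PTPRC and CD3E were listed at 0 in every library. Depth was estimated at about 12.47 and 12.85 M fragments in KO 1 and KO 2 and 12.99 and 13.39 M in EV controls 1 and 2. These are rough values taken from the spacing of low FPKM, not library totals.

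Of the 39 HOX genes, 21 reached 1 FPKM in every library, 3 in 1 library each and 15 in none. The 21 were also the members that entered the test (at least 1 FPKM in at least 2 of the 4 libraries), so no member entered it through one group alone. They were 7 HOXA, 8 HOXB and 5 HOXC genes and HOXD8. The number of members at 1 FPKM or more was 22 in KO 1 and 23 in KO 2, against 21 in each EV control, and the difference came from members close to 1 FPKM, among them HOXB2 and HOXC8. Clusters A and B carried most of the HOX transcripts. Summed FPKM of cluster B was 97.4 in KO 1 and 81.2 in KO 2, against 127.8 and 119.5 in EV controls 1 and 2. It was the only cluster in which both KO sums were below both control sums. In cluster C both KO sums were above both control sums, at 19.7 and 18.4 against 16.5 and 15.9. In such bulk RNA, fewer cells with a transcript and less of it per cell cannot be told apart.

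With limma-trend on log2(FPKM + 1) and Benjamini-Hochberg adjustment over the 12701 genes tested, none of the 21 HOX genes passed 0.05 in either direction. The same test called 0.0551% of all genes lower and 0.0551% higher, 7 genes each way (0 once small RNA genes were left out), so with 2 libraries a group few genes passed anywhere. At an unadjusted p under 0.05 there were 5 HOX genes lower, against 7.22% of all genes tested, and 1 higher, against 9.23% of all genes. The 5 were HOXB4, HOXB6, HOXB7, HOXB8 and HOXB9, and the 1 was HOXC13. Both KO libraries lay below both EV controls in 6 HOX genes, a share near the 25.6% of all genes tested. All 6 were among the 8 HOXB genes tested. This grouping was read from the values themselves and holds neighbouring genes, so it is a description and was not tested. Both were higher than both controls in 5 HOX genes, against 26.5% of all genes, and these were HOXA5, HOXB13, HOXC9, HOXC10 and HOXC13. Taken singly, KO 1 was below both controls in 7 HOX genes and above both in 10, against 42.8% and 41.3% of all genes tested, and KO 2 was below both in 13 and above both in 5, against 41.4% and 45.7%. The median log2 difference was 0.0026 in HOXA, -0.44 in HOXB and 0.17 in HOXC, beside 0.0031 over all genes tested.

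**Figure D1:**
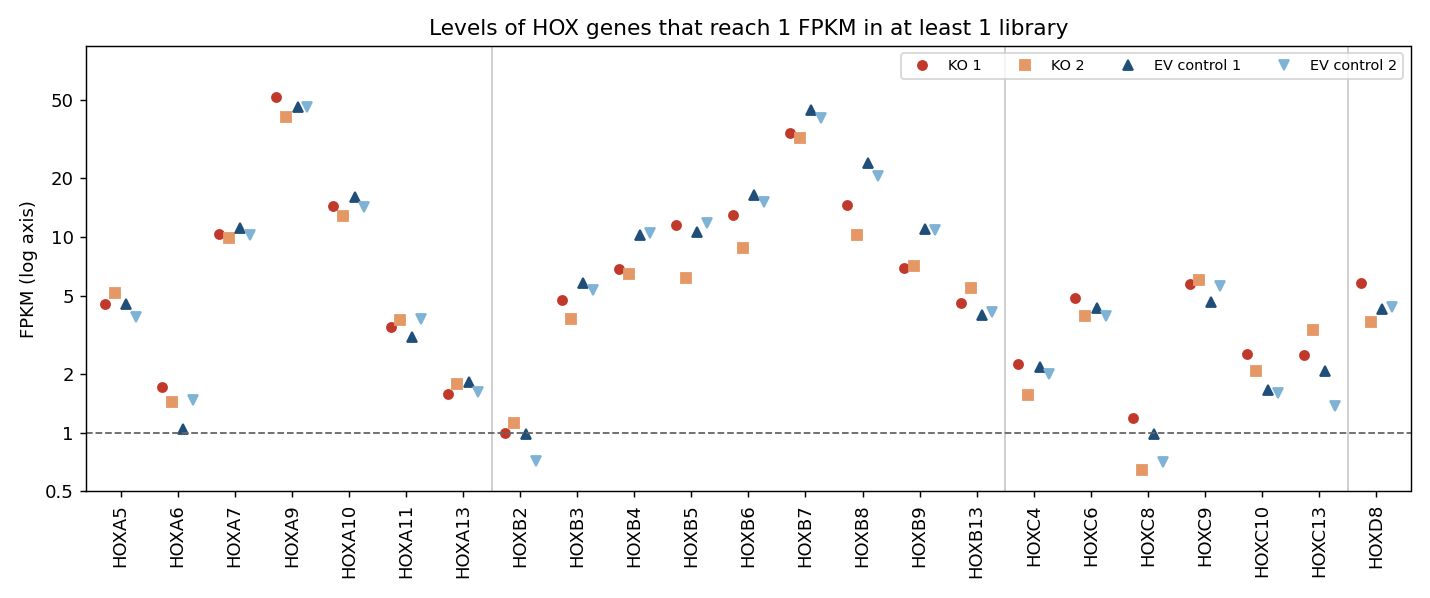
FPKM (log axis) of HOX genes that reached 1 FPKM in at least 1 library, in KO 1, KO 2, EV control 1 and EV control 2; each point is 1 library and the dashed line marks 1 FPKM. From HOXB3 to HOXB9 both KO points lie below both control points, except for HOXB5, where only KO 2 does, whereas the groups overlap in HOXA7 and HOXA9.

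Paralogs are alike in their homeobox, so fragments from it could be assigned to the wrong copy. In the reference transcripts (GENCODE release 29), the longest identical run between a HOXB transcript and any other member was 65 nt (HOXB3 and HOXB4), followed by 62 nt (HOXB3 and HOXD3) and 51 nt (HOXB6 and HOXB7). HOXC4 and HOXC6 shared 484 nt, so their values may be split by the counting and are uncertain. Neither read length nor the handling of multiply mapped reads is known from the sources used here.

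The sequences shown are those of the microRNAs that the clusters carry between their protein genes, because the HOXB gene with the largest difference, HOXB8, is a textbook target of one of them. The mature sequences (RefSeq, GRCh38.p14, 5′ to 3′) have the seed, bases 2 to 8, in capitals.
hsa-miR-196a-5p: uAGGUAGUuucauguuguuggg
hsa-miR-196b-5p: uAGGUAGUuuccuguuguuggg
hsa-miR-10a-5p: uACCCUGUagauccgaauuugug
The 2 miR-196 forms share their seed. The first is made from MIR196A1 at chr17:48632532-48632553 on the minus strand, between HOXB9 and HOXB13, and from MIR196A2 at chr12:53991762-53991783 on the plus strand in cluster C. The second is made from MIR196B at chr7:27169528-27169549 on the minus strand in cluster A, and miR-10a from MIR10A at chr17:48579904-48579926 on the minus strand, within the span of HOXB3. The 3′ UTR of the HOXB8 reference transcript holds the following stretch of 22 bases, in which the capital marks the one base that does not pair with miR-196a by Watson-Crick rules.
HOXB8 site: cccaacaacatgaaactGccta
It pairs at 21 of 22 bases, and no other among 19669 coding genes had a stretch with as many, the next HOX gene reaching 15. The letters ACTACCT, the reverse complement of the miR-196 seed, occurred in 10 of 39 HOX transcripts (25.6%), against 17.1% of all coding genes, on the transcript strand. They lay in the 3′ UTR of HOXA5, HOXA7, HOXA9, HOXB1, HOXB6, HOXB7, HOXB13 and HOXC8. The letters ACAGGGT, the reverse complement of the miR-10a seed, occurred in 5 of 39 (12.8%), against 19% of all coding genes. These matches describe the sequence alone, and the libraries, made from poly(A) RNA, did not measure mature microRNAs.

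HOXB8, a factor known for holding myeloid progenitors in an immature state, showed the largest difference among the members tested. It had 14.6 FPKM in KO 1 and 10.3 FPKM in KO 2, against 23.9 and 20.4 FPKM in EV controls 1 and 2. The KO libraries were under both controls, KO 2 the lower, at 66.0% and 46.4% of the EV mean for KO 1 and KO 2. The group means were 12.5 ± 3.08 FPKM in KO and 22.2 ± 2.46 FPKM in EV control (SD, n = 2 each), a log2 difference of -0.80 with a standard error of 0.18. The limma-trend adjusted p over all genes was 0.208 (unadjusted 0.00791). These values rest on roughly 333 and 241 fragments in KO 1 and KO 2, against 566 and 498 in EV controls 1 and 2. Such rough counts depend on the transcript length assumed, here that of the longest coding transcript.

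HOXB4 and HOXB9 showed the difference with the least spread. HOXB4, known for expanding haematopoietic stem cells, had 6.85 and 6.46 FPKM in KO 1 and KO 2, against 10.3 and 10.5 FPKM in EV controls 1 and 2. The groups did not overlap, and each KO library lay close to the other (66.0% and 62.2% of the EV mean). Its log2 difference was -0.57 with a standard error of 0.085, and its limma-trend adjusted p was 0.150 (unadjusted 0.00129). HOXB9, a regulator of thoracic skeletal and mammary development, had 6.91 and 7.11 FPKM in KO 1 and KO 2, against 11.03 and 10.85 FPKM in EV controls 1 and 2. Its 2 KO libraries were again alike (63.2% and 65.0% of the EV mean) and apart from the controls. Its log2 difference was -0.58 with a standard error of 0.082, and its limma-trend adjusted p was 0.140 (unadjusted 0.00105), the smallest among the HOX genes.

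HOXB7, which drives proliferation and mesenchymal change when overproduced in epithelial tumours, was the most abundant HOXB gene. It had 34.2 and 31.9 FPKM in KO 1 and KO 2, against 44.7 and 40.7 FPKM in EV controls 1 and 2. The groups did not overlap, and the KO libraries stood at 80.0% and 74.8% of the EV mean. The log2 difference was -0.36 with a standard error of 0.089 and a limma-trend adjusted p of 0.209 (unadjusted 0.0108).

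The stretch from HOXB3 to HOXB9 is called a block here, with its limits drawn from these same values. It also holds HOXB6, HOXB3 and HOXB5. HOXB6, a gene of the trunk with roles in blood precursors, had 13.02 and 8.80 FPKM in KO 1 and KO 2, against 16.4 and 15.1 FPKM in EV controls 1 and 2. Both KO libraries lay below both controls (82.7% and 55.9% of the EV mean), and the log2 difference was -0.51 with a standard error of 0.19 (limma-trend adjusted p = 0.289). HOXB3, a hindbrain gene in the embryo, had 4.75 and 3.83 FPKM in KO 1 and KO 2, against 5.83 and 5.34 FPKM in EV controls 1 and 2. It too had groups that did not overlap, with a log2 difference of -0.32 and a standard error of 0.13 (limma-trend adjusted p = 0.312). HOXB5, known for its role in the enteric nervous system, had 11.5 and 6.17 FPKM in KO 1 and KO 2, against 10.6 and 11.8 FPKM in EV controls 1 and 2. KO 1 lay between the controls and KO 2 at 55.1% of their mean, so the groups overlapped and the log2 difference of -0.36 had a standard error of 0.27 (limma-trend adjusted p = 0.539). Both HOXB5 and HOXB6 overlap the antisense gene HOXB-AS3.

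The 2 ends of the cluster did not share the lower values. HOXB2, a hindbrain gene, had 0.991 and 1.11 FPKM in KO 1 and KO 2, against 0.984 and 0.718 FPKM in EV controls 1 and 2, which corresponds to 19 and 22 whole fragments against 20 and 15. It was below the limit for testing, and only KO 2 passed 1 FPKM. HOXB13, a factor of hindgut and prostate and a partner of the androgen receptor, had 4.63 and 5.52 FPKM in KO 1 and KO 2, against 3.98 and 4.13 FPKM in EV controls 1 and 2. Here the KO libraries were the higher ones, with a log2 difference of 0.26, a standard error of 0.12 and a limma-trend adjusted p of 0.348. HOXB1, at the head end, was listed at 0 in all 4 libraries.

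**Figure D2:**
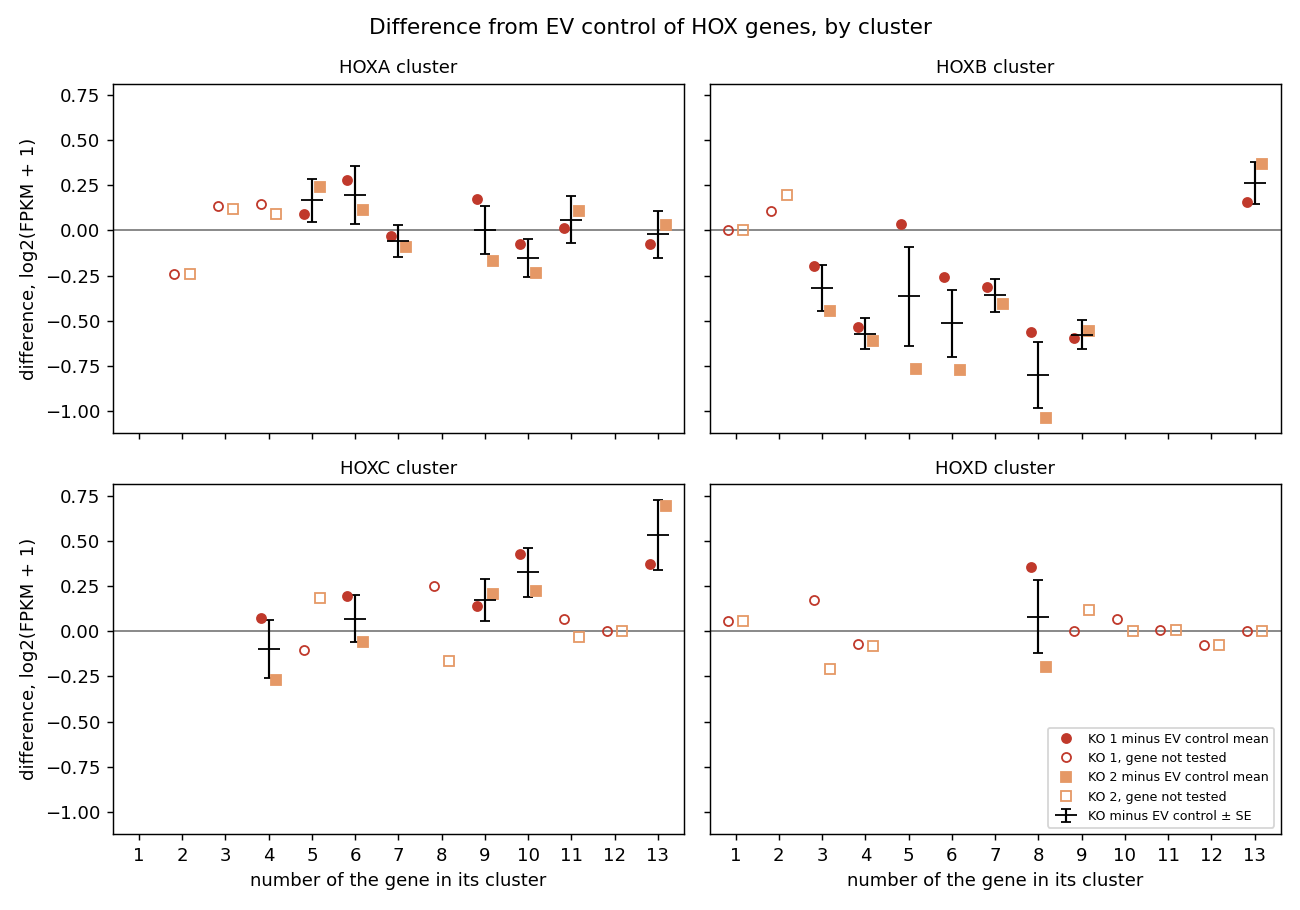
Difference from the EV control mean on the log2(FPKM + 1) scale for HOX genes, by number in cluster A, B, C or D: circles are KO 1, squares KO 2 (open where the gene was not tested), and black bars the KO minus EV control difference ± its standard error. HOXB3 to HOXB9 lie below zero except for KO 1 at HOXB5, while HOXB13 and, in cluster C, HOXC10 and HOXC13 lie above it in both KO libraries.

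Each KO library was also set alone against the 2 controls, in a limma-trend fit in which the lone KO library is assumed to vary as the controls do. KO 1 alone called 3 HOX genes lower (6.94% of all genes tested were called lower), namely HOXB4, HOXB8 and HOXB9. KO 2 alone called 7 HOX genes lower (6.62% of all genes), which were HOXB3 to HOXB9, all the consecutive genes of the block. No HOX gene was called higher in either fit, where 6.29% of all genes were called higher in KO 1 and 10.9% in KO 2. The adjusted p for HOXB8 was 0.0331 in KO 1 and 0.0102 in KO 2, for HOXB4 0.0217 and 0.0156, and for HOXB9 0.0169 and 0.0182. HOXB5 had a log2 difference of 0.04 in KO 1 (adjusted p = 0.807) and of -0.76 in KO 2 (adjusted p = 0.0141). The assumption behind these calls can be set beside the spread itself. The median absolute log2 difference between replicates was 0.209 between the 2 KO libraries and 0.109 between the 2 EV controls over the HOX genes tested, and 0.170 and 0.0732 over all genes tested, so KO libraries varied more than controls. When an EV control was left out in place of a KO library, no HOX gene was called. Over the cluster, KO 2 stood lower than KO 1 (summed FPKM at 65.7% and 78.8% of the EV mean), although C14orf159 was lower in KO 1. Whether the 2 are related was not tested.

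Cluster A, at 90.5 and 77.8 summed FPKM in KO 1 and KO 2, against 85.8 and 83.3 in EV controls 1 and 2, had overlapping sums. HOXA9, a regulator of blood stem cells that MLL fusion proteins switch on in leukaemia, was the most abundant HOX gene of all. It had 52.3 and 40.9 FPKM in KO 1 and KO 2, against 46.1 and 46.3 FPKM in EV controls 1 and 2. KO 1 lay above and KO 2 below both controls, and the log2 difference was 0.0026 with a standard error of 0.13 (limma-trend adjusted p = 0.995), a sign that turned with median-of-ratios scaling. HOXA10, needed in the uterus and active in blood cells, had 14.4 and 12.8 FPKM in KO 1 and KO 2, against 16.1 and 14.3 FPKM in EV controls 1 and 2, so the groups overlapped (log2 difference -0.15, standard error 0.11, limma-trend adjusted p = 0.507). HOXA7 had 10.4 and 9.92 FPKM in KO 1 and KO 2, against 11.1 and 10.2 FPKM in EV controls 1 and 2. The groups overlapped here too.

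The other HOXA genes were lower in level. HOXA5, needed for lung development, had 4.57 and 5.16 FPKM in KO 1 and KO 2, against 4.54 and 3.92 FPKM in EV controls 1 and 2, both KO libraries lying just above the controls (log2 difference 0.17, limma-trend adjusted p = 0.522). HOXA11, a gene of limb and uterus, had 3.48 and 3.78 FPKM in KO, against 3.08 and 3.82 FPKM in EV control. HOXA13, a gene of digits and the genital tract, had 1.58 and 1.78 FPKM in KO, against 1.81 and 1.62 FPKM in EV control. In both the groups overlapped and the log2 differences were 0.06 and -0.02. HOXA6 had 1.71 and 1.43 FPKM in KO, against 1.04 and 1.46 FPKM in EV control (log2 difference 0.20, limma-trend adjusted p = 0.573), again with overlapping groups.

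HOXA2, HOXA3 and HOXA4 stayed under 1 FPKM, and for 2 of these the values came down to whole fragments. HOXA2, which patterns the second branchial arch, had 1 fragment in each KO library (0.0463 and 0.0450 FPKM), against 5 and 6 fragments in EV controls 1 and 2 (0.218 and 0.255 FPKM). Per library, adjusted for depth, the KO to EV ratio of summed fragments was 0.193. Its 95% exact binomial interval, from 0.0207 to 0.882, covers counting error only. HOXA2 had the lowest ratio of the HOX genes with such an interval. The interval is not adjusted for that choice among several genes and rests on few fragments. The intervals of all the others included a ratio of 1, among them HOXA4 (0.646 to 2.84) and HOXD4 (0.410 to 1.72). HOXA3 had 0.525 and 0.509 FPKM in KO, against 0.452 and 0.328 FPKM in EV control. HOXA4 had 10 and 9 fragments in KO 1 and KO 2, against 8 and 7 in EV controls 1 and 2. In HOXA3 and HOXA4 the values were higher in both KO libraries than in both controls, without a test.

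Cluster C was expressed at single-digit FPKM, and HOXC9, HOXC10 and HOXC13 had higher values in both KO libraries than in both controls, though none of the 3 passed over all genes. HOXC13, a regulator of hair and nail keratins, had 2.49 and 3.36 FPKM in KO 1 and KO 2, against 2.07 and 1.37 FPKM in EV controls 1 and 2. The groups did not overlap, at means of 2.92 ± 0.611 FPKM in KO and 1.72 ± 0.492 FPKM in EV control (SD, n = 2 each). The log2 difference was 0.53 with a standard error of 0.19 and a limma-trend adjusted p of 0.289 (unadjusted 0.0415). HOXC10, a gene of lumbar motor neurons, had 2.53 and 2.06 FPKM in KO 1 and KO 2, against 1.64 and 1.60 FPKM in EV controls 1 and 2, again without overlap (log2 difference 0.33, limma-trend adjusted p = 0.323). HOXC9, a gene of thoracic motor neurons, was the third, with 5.73 and 6.04 FPKM in KO, against 4.63 and 5.61 FPKM in EV control (log2 difference 0.17, limma-trend adjusted p = 0.505).

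The earlier HOXC genes showed no such order. HOXC4, which helps switch on antibody gene diversification in B cells, had 2.24 and 1.55 FPKM in KO 1 and KO 2, against 2.15 and 2.001 FPKM in EV controls 1 and 2. HOXC6 had 4.89 and 3.93 FPKM in KO, against 4.33 and 3.94 FPKM in EV control. HOXC8, a gene of the brachial spinal cord, had 1.19 and 0.645 FPKM in KO, against 0.989 and 0.706 FPKM in EV control, and passed 1 FPKM in KO 1 alone. In these 3 KO 1 was above and KO 2 below both controls. HOXC5 and HOXC11 remained under 1 FPKM in every library and HOXC12 was listed at 0.

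In cluster D only HOXD8, a trunk gene, reached 1 FPKM. It had 5.86 and 3.67 FPKM in KO 1 and KO 2, against 4.29 and 4.41 FPKM in EV controls 1 and 2. KO 1 lay above and KO 2 below both controls, and the log2 difference was 0.08 with a standard error of 0.20 (limma-trend adjusted p = 0.859). The other 8 HOXD genes stayed under 1 FPKM in every library. By the smallest whole numbers that fit, HOXD4 had 8 fragments in each KO library, against 7 and 13 in EV controls 1 and 2. Rough counts from its transcript length were 10 in each KO library, against 8 and 16. HOXD3 had 10 and 1 fragments in KO 1 and KO 2, against 5 and 7 in EV controls 1 and 2. HOXD1, HOXD10 and HOXD11 had at most 2 fragments in any library, HOXD9 and HOXD12 were above 0 in 1 library each, and HOXD13, the digit gene at the tail end, was listed at 0 in all 4. A difference in these genes was not detectable at this depth.

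**Figure D3:**
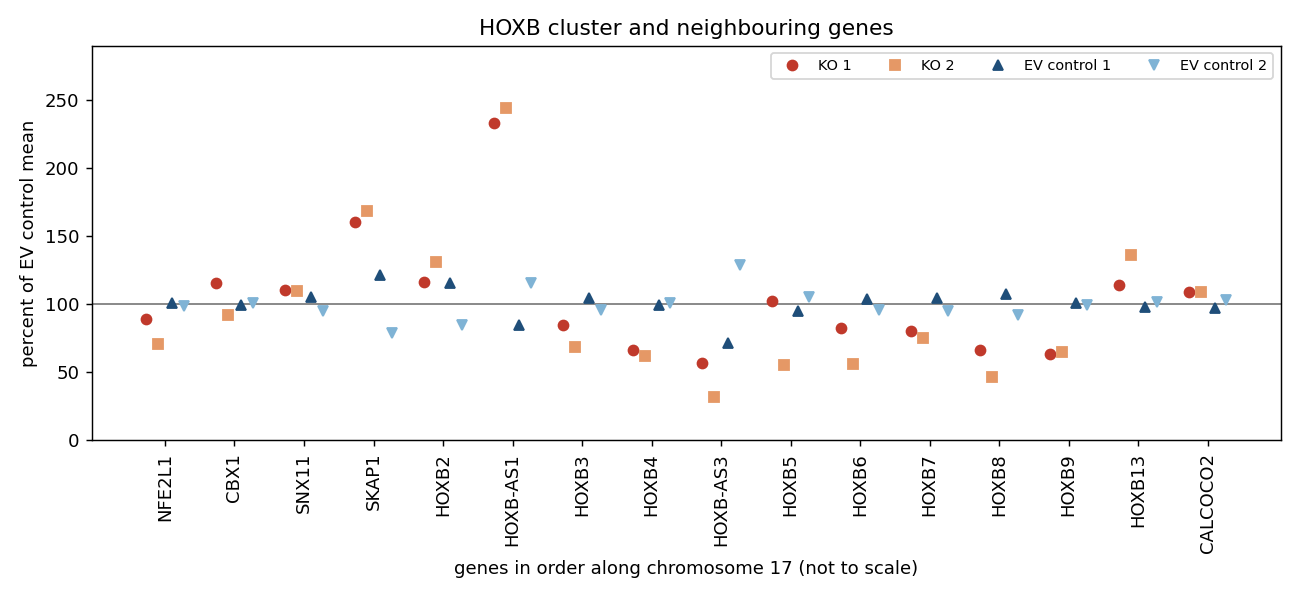
Level of each gene as a percent of its own EV control mean, for the HOXB cluster and its neighbours in their order along chromosome 17 (distances not to scale; genes under 1 FPKM in every library left out), in the 4 libraries. The KO points of the HOX genes from HOXB3 to HOXB9 lie between 46.4% and 85.1%, except for HOXB5 in KO 1 at 102.7%, those of HOXB-AS3 at 56.6% in KO 1 and 32.0% in KO 2, and those of SKAP1, HOXB-AS1 and HOXB13 lie above the controls.

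The non-coding genes inside the clusters gave 8 tested genes of 23 in the files, and none was called over all genes. With an unadjusted p below 0.05 in limma-trend, 1 was lower, HOXB-AS3, against 7.22% of all genes tested. HOXB-AS1 reached 1 FPKM in the KO libraries alone, so its p-value is not counted. HOXB-AS3, which overlaps HOXB5 and HOXB6 on the other strand, had 8.31 and 4.70 FPKM in KO 1 and KO 2, against 10.5 and 18.9 FPKM in EV controls 1 and 2. The KO libraries held less than either control (log2 difference -1.05, standard error 0.35, limma-trend adjusted p = 0.271). HOXB-AS1, which overlaps HOXB2 and HOXB3, had 1.60 and 1.68 FPKM in KO 1 and KO 2, against 0.582 and 0.794 FPKM in EV controls 1 and 2. These values lay the other way, but HOXB-AS1 entered the test only through its KO libraries, so its direction is given as a description, with no test. The kit marks strand, but whether the counting used strand is unknown from the sources used here, so reads of these antisense genes and of the HOXB genes they overlap cannot be told apart with certainty.

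HOTAIRM1, a non-coding gene at the head end of cluster A, had 5.39 and 3.62 FPKM in KO 1 and KO 2, against 2.17 and 3.26 FPKM in EV controls 1 and 2 (limma-trend adjusted p = 0.317). HOXA10-AS had 2.59 and 2.30 FPKM in KO, against 2.88 and 3.29 FPKM in EV control, and HOXC-AS1 had 5.77 and 7.48 FPKM in KO, against 5.45 and 6.09 FPKM in EV control. HOTAIR, a cluster C transcript known for binding Polycomb proteins, stayed under 1 FPKM in every library. HAGLR, which overlaps HOXD1, reached 1.22 FPKM in KO 1 and 0.316 FPKM in KO 2, against 0.185 and 0.145 FPKM in EV controls 1 and 2. Of the microRNA genes, MIR196A1, MIR196A2, MIR10A, MIR10B and MIR615 were listed at 0 in every library. MIR196B was listed at 578 and 561 FPKM in KO 1 and KO 2, against 545 and 531 FPKM in EV controls 1 and 2. Once the differing value of 1 fragment is taken out, these came to 545 in all 4 libraries, the value that an equal number of fragments in each would give, and 1 fragment counts for much in a gene this short.

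Genes next to the clusters, on their outer sides but for PRAC1 and PRAC2, were compared because neighbouring chromatin is often regulated with a cluster. PRAC1 and PRAC2 lie between HOXB9 and HOXB13 and were not tested. Of 24 in the files, 21 were tested and none was called (3 higher and 0 lower with an unadjusted p below 0.05, against 9.23% and 7.22% of all genes; median log2 difference 0.11). SKAP1, an adaptor of T cell signalling that lies beside HOXB1, had 7.77 and 8.17 FPKM in KO 1 and KO 2, against 5.87 and 3.81 FPKM in EV controls 1 and 2. It lay above both controls in both KO libraries (log2 difference 0.64, limma-trend adjusted p = 0.243), unlike the HOXB block. SKAP2, its relative next to cluster A, had 8.09 and 7.04 FPKM in KO, against 5.97 and 6.13 FPKM in EV control (log2 difference 0.28, limma-trend adjusted p = 0.294). JAZF1, further along chromosome 7, had 1.70 and 1.96 FPKM in KO, against 1.17 and 1.23 FPKM in EV control (log2 difference 0.36, limma-trend adjusted p = 0.288). On the far side of HOXB13, CALCOCO2, an autophagy receptor, had 32.2 FPKM in both KO libraries, against 28.6 and 30.4 FPKM in EV controls 1 and 2. Further out on the HOXB1 side, NFE2L1, a stress-response transcription factor, had 53.6 and 42.5 FPKM in KO, against 60.6 and 59.3 FPKM in EV control (log2 difference -0.32, limma-trend adjusted p = 0.315). Along chromosome 17, the limits of the block from HOXB3 to HOXB9 were drawn from these values. HOXB2 and HOXB13 thus lie outside it by definition, and their values say nothing about a boundary. Beyond the cluster, SKAP1 on one side and CALCOCO2 on the other did not have lower values in both KO libraries. Of the genes beyond SKAP1, SNX11 was higher in both KO libraries than in both controls, CBX1 overlapped and NFE2L1 was lower in both, as 25.6% of all genes tested were.

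**Figure D4:**
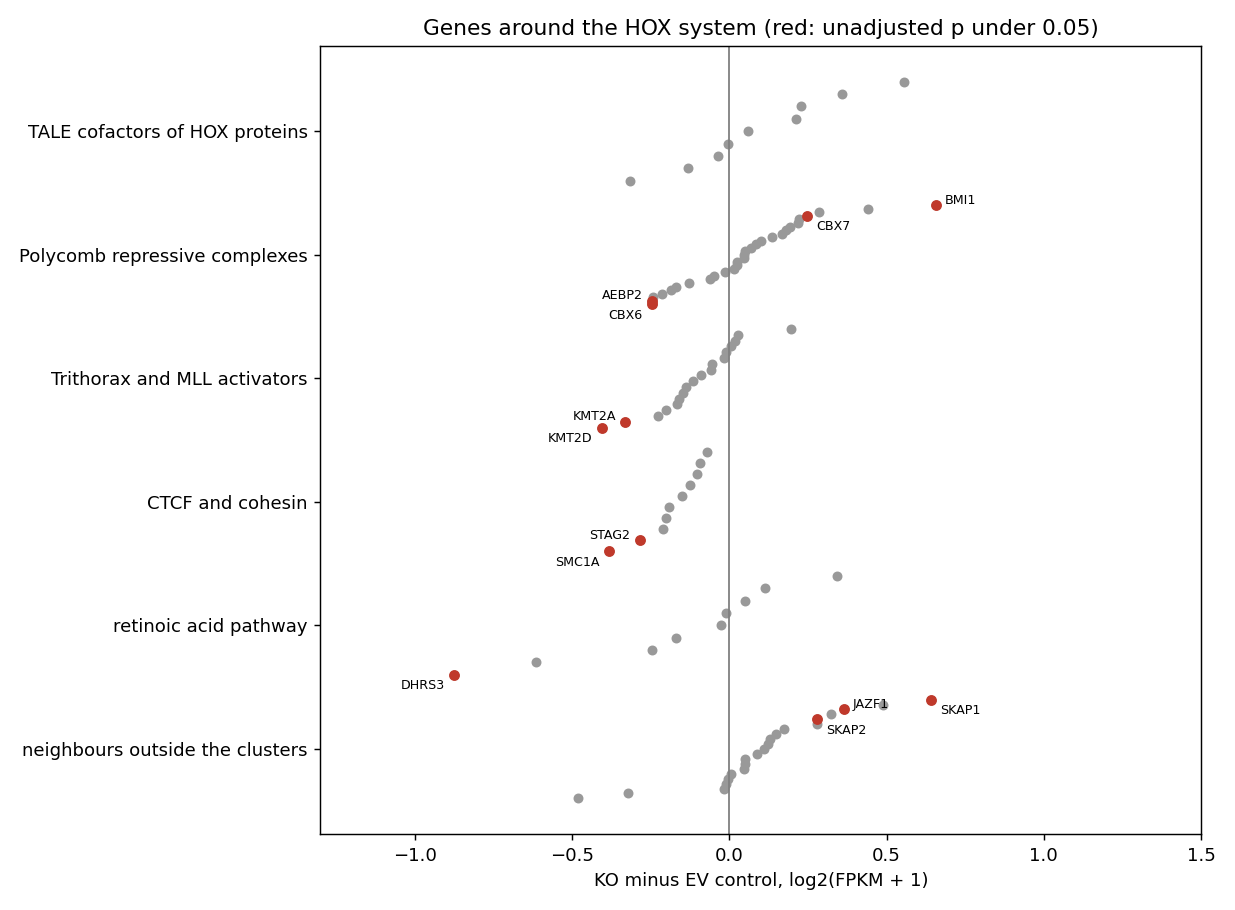
Difference KO minus EV control on the log2(FPKM + 1) scale for tested genes of 6 lists around the HOX system, 1 point a gene, sorted by value within each list; red points have an unadjusted p under 0.05 and are named. No point passes adjustment over all genes, and the named points run from DHRS3 at -0.88 to BMI1 at 0.66.

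The regulators of HOX chromatin were read from lists chosen by function. Trithorax and MLL proteins keep HOX genes active, some of them by methylating histones. Of 18 genes tested on the list of these activators none was called, and the median log2 difference was -0.10. With an unadjusted p below 0.05 in limma-trend, 0 were higher and 2 lower, against 9.23% and 7.22% of all genes. The count lower was near the share of all genes. The 2 were KMT2D and KMT2A, and KMT2A is the MLL methyltransferase that maintains HOX expression. KMT2A had 6.21 and 5.18 FPKM in KO 1 and KO 2, against 7.12 and 7.67 FPKM in EV controls 1 and 2, and KMT2D had 6.17 and 5.32 FPKM in KO, against 7.70 and 8.14 FPKM in EV control. The groups did not overlap in either, with log2 differences of -0.33 for KMT2A and -0.41 for KMT2D (limma-trend adjusted p = 0.281 and 0.218).

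Polycomb proteins silence HOX genes, and their 29 tested genes were spread to both sides (2 higher and 2 lower with an unadjusted p below 0.05, no more than the 9.23% and 7.22% of all genes, none called, median log2 difference 0.05). BMI1, a core subunit of Polycomb complex 1, had 7.82 and 8.35 FPKM in KO 1 and KO 2, against 5.58 and 4.05 FPKM in EV controls 1 and 2 (log2 difference 0.66, limma-trend adjusted p = 0.208). CBX6 and AEBP2, subunits of Polycomb complexes, lay the other way, with 32.5 and 33.0 FPKM in KO against 39.1 and 38.9 FPKM in EV control for CBX6, and 8.10 and 8.69 FPKM in KO against 10.2 and 10.03 FPKM in EV control for AEBP2. In all 3 genes the groups did not overlap, and none passed over all genes.

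CTCF and cohesin form the chromatin loops that divide HOX clusters into active and silent parts. In 8 of the 10 tested genes of that list the KO libraries were below both controls, against 25.6% of all genes tested. None was called, 0 were higher and 2 lower with an unadjusted p below 0.05 (9.23% and 7.22% of all genes), and the median log2 difference was -0.17. SMC1A, a cohesin core subunit, had 14.9 FPKM in both KO libraries, against 18.9 and 20.6 FPKM in EV controls 1 and 2 (log2 difference -0.38, limma-trend adjusted p = 0.201). STAG2, another cohesin subunit, had 17.2 and 15.2 FPKM in KO, against 19.4 and 20.6 FPKM in EV control, and CTCF had 23.9 and 22.1 FPKM in KO, against 27.4 and 25.7 FPKM in EV control. None passed over all genes.

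Retinoic acid switches on HOX genes in their order along the cluster, through receptors that bind within it. Of 10 tested genes of this pathway, none was called (1 each way with an unadjusted p below 0.05, against 9.23% higher and 7.22% lower of all genes; median log2 difference -0.02). DHRS3, which turns retinaldehyde back to retinol, had 24.4 and 13.3 FPKM in KO 1 and KO 2, against 35.0 and 33.0 FPKM in EV controls 1 and 2 (log2 difference -0.88, limma-trend adjusted p = 0.257). The groups did not overlap, and KO 2 was the lowest library. RDH10, a retinol dehydrogenase, had 7.01 and 5.87 FPKM in KO, against 7.67 and 7.91 FPKM in EV control, again without overlap (log2 difference -0.25).

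HOX proteins bind DNA together with TALE homeodomain partners. Of 11 TALE genes in the files, TGIF repressors included, 9 were tested. None was called, none had an unadjusted p under 0.05 in limma-trend, and the median log2 difference was 0.06. PBX3, a partner of HOXA9 in leukaemia, had 6.41 and 3.77 FPKM in KO 1 and KO 2, against 3.19 and 2.91 FPKM in EV controls 1 and 2 (log2 difference 0.56, limma-trend adjusted p = 0.323). MEIS3 had 15.0 and 21.7 FPKM in KO, against 13.9 and 13.8 FPKM in EV control. TGIF2, a repressor of the same family, had 7.86 and 8.81 FPKM in KO, against 6.99 and 7.13 FPKM in EV control. In these 3 genes the KO libraries were above both controls. Of 8 ParaHox and EVX genes only CDX2, the intestinal regulator that acts on HOX clusters, was tested, and its groups overlapped, at 8.01 and 10.2 FPKM in KO 1 and KO 2, against 9.69 and 8.79 FPKM in EV controls 1 and 2.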

How the data were processed

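The authors deposited FPKM per gene symbol for 4 libraries, and no read counts were used. Per the labels' protocols, RNA came from the miRNeasy kit and libraries from the TruSeq stranded mRNA kit. TopHat2 2.0.13, Bowtie2 2.2.3, SAMtools 0.1.19, Cuffnorm 2.2.1 and the build hg19 stand in the submitters' processing notes; annotation, strand use in counting and scaling are unknown from the sources used here. Member coordinates are not printed, since the references used are of another build; miRNA coordinates are RefSeq's (GRCh38.p14).

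Values were tested as log2(FPKM + 1), with genes at 1 FPKM or more in at least 2 libraries (12701), by limma 3.58.1 with a trend in R 4.3.3, the group as sole term. Differences are KO minus EV control; fold changes of low genes are understated on this scale. Benjamini-Hochberg adjustment ran over all genes tested, with a threshold of 0.05. The value of 1 fragment was read from 2008 single-transcript genes, and the ratios between libraries from the commonest ratio of low values. Fragments were called whole within 0.5%, as the smallest whole numbers that fit all 4 libraries, so true counts may differ. The fit was tested on simulated data.

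HOX genes at 1 FPKM in any library were named, the others by group; a few genes that the rule covers are not reported here, though counts and medians include them; of other lists, those with the smallest p-values and, for non-coding genes and neighbours, those at 1 FPKM. The members and lists were chosen with earlier results of these data known. Alternatives were other pseudocounts, filters, scalings and variance models, a fit without small RNA genes, a replicate block and leaving out each library.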

Additional observations from a re-analysis of the deposited data

How the results depend on the processing

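No HOX gene passed 0.05 over all genes in any fit with both KO libraries (limma-trend; 5 lower and 1 higher at an unadjusted p under 0.05). HOX genes were called lower only in the fits that left out a KO library, where a single KO library stands against the controls. None was called higher in any fit. At an unadjusted p under 0.05, 3 to 8 were lower and 0 to 3 higher when 1 library was left out; the 1 higher gene became 0 with no filter, with a filter at 5 FPKM and with quantile normalization, and 2 without the trend. For the fits that left out 1 library, no share of all genes at an unadjusted p under 0.05 is given here. The HOX counts at that limit in those fits therefore cannot be judged against all genes. The median log2 difference of the HOX genes tested, -0.02, was -0.17 to 0.037 when 1 library was left out (-0.17 without KO 1) and -0.36 with a filter at 5 FPKM, which tests fewer genes. Over all genes, 7 higher and 7 lower calls became 3 and 3 with no filter, 0 and 0 without small RNA genes and 6 to 1381 and 5 to 881 when 1 library was left out; higher calls were 3 without the trend and 4 with a replicate block, and lower calls 4 with quantile normalization. The number of HOX genes at 1 FPKM or more in every library, 21, was 24 at 0.5 FPKM and 16 at 2 FPKM.

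Log2 differences that changed sign when 1 library was left out ranged from -0.17 to 0.18 (HOXA9), -0.059 to 0.18 (HOXA11), -0.076 to 0.031 (HOXA13), -0.76 to 0.037 (HOXB5), -0.27 to 0.075 (HOXC4), -0.058 to 0.20 (HOXC6) and -0.20 to 0.36 (HOXD8); HOXA9 was -0.0019 with median-of-ratios scaling. The other HOX genes tested all kept the sign of their log2 difference in every fit that held them. Among these, HOXB4 ranged from -0.6338 to -0.5353, HOXB8 from -1.035 to -0.5635 and HOXB9 from -0.6347 to -0.5581. The labels give replicate numbers but no pairing, and same-numbered libraries did not deviate together (r = -0.0046 over all genes tested, -0.124 without small RNA genes and -0.195 over genes with a mean of 5 FPKM or more and no small RNA genes). With the replicate block the adjusted p was 0.208 for HOXB4, 0.149 for HOXB8 and 0.203 for HOXB9, and it called no HOX gene. With crossed numbers, added after the data were seen, 11 genes were called lower and 5 higher. The cause of these shifts was not tested. Depth limits the 15 HOX genes under 1 FPKM, most of which rest on a few fragments.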
